A study of Mus musculus with 44 samples.

Results

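The comparison set L929 cells that carried FRMD5 without its coiled coil and its LCDs, read here as low-complexity domains (delta-CC-LCD), against L929 cells that carried the full-length protein. Both constructs are of FRMD5 isoform 2. Its members are the 4 libraries labelled with the coiled-coil and LCD deletion and the 4 labelled full-length, 8 of the 44 libraries of the series and 8 of its 16 L929 libraries, and they were taken by their sample titles. L929 is an established line of mouse fibroblasts. Per the series' design text, the L929 lines of the truncation experiment had received dexamethasone for 4 hours, but the labels give no treatment for single libraries. Neither the labels nor the design text give the dexamethasone concentration, the way the constructs were introduced, or whether a line is 1 clone. The other L929 libraries are 4 labelled as a combined-domain deletion named delta-IDR and 4 labelled control, for which the labels do not say whether dexamethasone was given. Those groups are quoted beside a gene only to place its level.

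FRMD5 is a protein with a FERM domain, a fold that binds membrane lipids and the tails of membrane proteins. Dexamethasone is a synthetic agonist of the glucocorticoid receptor, which on binding its ligand moves to the nucleus and switches genes on and off at DNA sites it recognises. Coiled coils and low-complexity stretches are known for joining proteins to each other. In fibroblasts, the serum response factor (SRF) and its cofactors tie growth-factor signals and the state of the actin skeleton to the transcription of immediate-early and cytoskeletal genes, and glucocorticoids are known to act on several of the same genes.

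Total counts ran from 17294752 to 17713321 in the full-length libraries and from 17357839 to 17692259 in the delta-CC-LCD libraries. The libraries did not vary evenly within a group. By a chi-square of counts per gene, full-length libraries 1 and 3 (3.98) and full-length libraries 2 and 4 (3.88) were closest to each other, against 8.83 to 10.8 for the other full-length pairs. Delta-CC-LCD library 1 stood 7.5 to 10.3 from the other libraries of its group, which lay 4.12 to 5.62 from each other. No pair agreed within sampling noise, so each library was counted as 1 replicate. Nothing in the labels says that a group's libraries are separate cultures, so the spread that p-values rest on is that of these libraries and may be technical. Fibroblast markers were abundant, at a summed level of 12900 to 13800 CPM (counts scaled to a library of 1000000) in the full-length group and 10600 to 12500 CPM in the delta-CC-LCD group. Not all of these markers were present. Lum, which marks many fibroblasts, was at 0, and Thy1 had 3 counts over each group. Lox had 28 counts over the full-length group and 31 over the delta-CC-LCD group. Summed markers of epithelium (at most 0.717 CPM), endothelium (at most 2.04 CPM) and neurons (at most 1.37 CPM) were near 0 in all 8 libraries. Those of macrophages summed to 20.7 to 22.2 CPM and 19.3 to 23.7 CPM. In bulk RNA, fewer cells of a type and less RNA per cell cannot be told apart.

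Frmd5 itself occupies bases 121545529 to 121807087 of chromosome 2 (mm10, minus strand). It had 1, 0, 6 and 2 counts in full-length libraries 1 to 4 and 0, 4, 0 and 1 counts in delta-CC-LCD libraries 1 to 4. Both groups were too low to test. The counts on the endogenous gene therefore do not show which construct a library carried, and no check of the labels came from them.

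Across 14118 genes tested, 2727 were called changed by edgeR's quasi-likelihood test at a Benjamini-Hochberg adjusted p below 0.05, which is 19.3% of the genes tested. Of these, 1189 (8.42%) were higher and 1538 (10.9%) lower in delta-CC-LCD than in full-length. Most changes were small, with 2182 of the called genes within 0.5 of 0 on the log2 scale. At 1.5-fold or more, 105 genes were higher and 308 lower, and at 2-fold or more 34 were higher and 99 lower. The CPM of the groups did not overlap for 2770 genes (19.6%), of which 1258 (8.91%) were higher and 1512 (10.7%) lower. The median log2 change over all genes tested was -0.01. A log2 change is given as delta-CC-LCD minus full-length with its standard error, levels are in CPM scaled by TMM, and each group has n = 4 libraries.

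**Figure D1:**
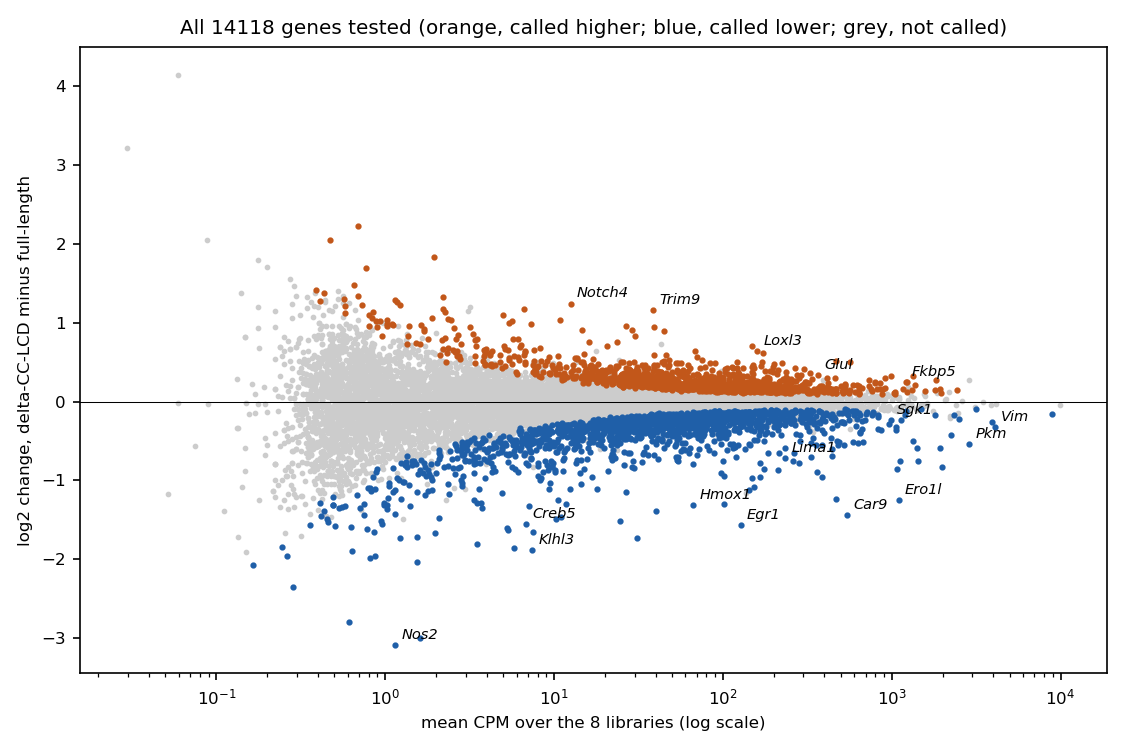
Log2 change between delta-CC-LCD and full-length (vertical axis) against mean CPM over the 8 libraries (horizontal axis, log scale) for every gene tested, with 1189 genes called higher in orange and 1538 called lower in blue. At 2-fold or more, 34 of the orange points lie above 0 and 99 of the blue points below.

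Of the immediate-early genes many were lower with delta-CC-LCD, and targets of SRF and YAP went both ways. Promoters of SRF target genes are known for the CArG box, the site that SRF binds, searched here on both strands. The promoter of Srf itself, a gene that its own protein is known to act on, holds a pair of them within the 250 bases before its start, shown here to place the site (RefSeq, GRCm38.p6, chr17:46556163-46556412, minus strand, 5′ to 3′, with the CArG boxes in capitals).
Srf: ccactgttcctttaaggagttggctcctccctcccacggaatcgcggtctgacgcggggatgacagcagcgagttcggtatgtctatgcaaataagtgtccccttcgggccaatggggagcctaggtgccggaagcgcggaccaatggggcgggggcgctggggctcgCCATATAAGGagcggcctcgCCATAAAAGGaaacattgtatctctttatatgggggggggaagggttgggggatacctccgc
A CArG box stood in 5 of the 17 SRF and YAP targets with a promoter in the RefSeq table (29.4%), and in 3 of the 8 called ones. It stood in 2 of 20 immediate-early genes (10%), and in 1 of the 8 called ones. Of all 27025 genes in that table, expressed in L929 cells or not, 1.62% held it in a window of the same length. A match of letters is a description of the window and not evidence of binding. The lists here and below include known targets of the factor whose site was searched. A share above that of all genes therefore describes the list and not this comparison.

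Of 27 immediate-early genes tested, which are transcribed within minutes of a growth-factor signal, 13 were called lower and 0 higher, with a median log2 change of -0.36. The share called was 48.1%, against 19.3% of all genes (8.42% higher and 10.9% lower). At an unadjusted p below 0.05, 14 were lower and 0 higher in edgeR, and DESeq2 at its adjusted threshold also called 14 lower and 0 higher. Egr1, a zinc-finger transcription factor, stood at 169, 215, 162 and 218 CPM in full-length libraries 1 to 4 and at 60.8, 78.9, 66.1 and 51.3 CPM in delta-CC-LCD libraries 1 to 4. All 4 delta-CC-LCD libraries were below the lowest full-length library, and full-length libraries 2 and 4 were above 1 and 3. The log2 change was -1.57 ± 0.14 (adjusted p = 6.04e-06). Egr1 was at 66.3 ± 5.31 CPM in the control group and at 139 ± 12 CPM with delta-IDR, from which delta-CC-LCD differed by -1.11 ± 0.14 (adjusted p = 5.56e-05).

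Fos, a subunit of the AP-1 transcription factor, stood at 10.5, 14.3, 10.4 and 15.8 CPM with full-length and 5.92, 6.92, 6.16 and 4.67 CPM with delta-CC-LCD. The groups did not overlap, and the change was -1.10 ± 0.13 (adjusted p = 8.83e-07). Its partner Fosb changed by -0.67 ± 0.15 (adjusted p = 0.00252), and the AP-1 members Junb and Jund by -0.36 ± 0.08 and -0.62 ± 0.11 (adjusted p = 0.00317 and 0.00161). Ier2 fell by 0.60 on the log2 scale, Zfp36, which speeds the decay of inflammatory messengers, by 0.58, Csrnp1 by 0.53, and the growth regulator Myc by 0.37. The Krüppel-like factors Klf4 and Klf10 changed by -0.64 ± 0.11 and -0.36 ± 0.06 (adjusted p = 0.000175 and 0.00012). Other members did not pass, among them Jun (-0.08 ± 0.12, adjusted p = 0.695) and the orphan receptor Nr4a1 (0.35 ± 0.17, adjusted p = 0.177). For Jun the sign turned with the libraries used, at 0.27 with libraries 1 and 3 of each group, -0.38 with libraries 2 and 4, and 0.06 without full-length library 2. With libraries 1 and 3 of each group alone, 8 immediate-early genes were lower and 2 higher, and with libraries 2 and 4 alone 16 were lower and 0 higher.

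Of 20 genes that ERK signalling induces or that restrain it, 8 were called lower and 1 higher, with a median of -0.16. The share called was 45%, against 19.3% of all genes. Among the ligands, Hbegf, which is shed from the membrane and binds the EGF receptor, stood at 21.1, 23.3, 19.1 and 20.6 CPM with full-length and 16.9, 15.3, 15.8 and 14 CPM with delta-CC-LCD. The groups did not overlap (-0.44 ± 0.08, adjusted p = 0.000392). Lif, a cytokine of the interleukin-6 family, changed by -0.73 ± 0.14 (adjusted p = 0.000386). Of the phosphatases that switch off MAP kinases, Dusp2 changed by -0.63 ± 0.09, Dusp5 by -0.30 ± 0.07 and Dusp6 by -0.19 ± 0.05 (adjusted p = 5.6e-05, 0.00532 and 0.00364). Dusp4, of the same family, went the other way, at 31.3, 33.7, 30.4 and 36.4 CPM with full-length and 41.4, 45.4, 48.8 and 46.5 CPM with delta-CC-LCD, with no overlap (0.47 ± 0.06, adjusted p = 2.8e-06). Spry2, a feedback inhibitor of receptor tyrosine kinases, changed by -0.20 ± 0.05 (adjusted p = 0.00824, and 0.0541 without full-length library 1). The count of higher genes was 2 without full-length library 1 or delta-CC-LCD library 1 and 3 without full-length library 4. With libraries 1 and 3 of each group alone, 2 of these genes were lower, and 3 were when libraries were summed in pairs.

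Of 20 SRF and YAP targets tested, 6 were called lower and 3 higher (45%, against 19.3% of all genes), with a median of -0.11. Srf stood at 88.2, 84.7, 86.5 and 90.1 CPM with full-length and 65.8, 63, 61.5 and 58.1 CPM with delta-CC-LCD. The groups were well apart and each was tight, with a change of -0.49 ± 0.05 (adjusted p = 7.2e-08). Srf with delta-CC-LCD was also below delta-IDR (86.7 ± 5.71 CPM) by -0.48 ± 0.05 (adjusted p = 1.91e-08).

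Cyr61, a secreted matrix protein and YAP target, stood at 571, 513, 545 and 521 CPM with full-length and 387, 369.9, 337 and 323 CPM with delta-CC-LCD. Every delta-CC-LCD library was lower, with a change of -0.60 ± 0.05 (adjusted p = 1.77e-08). The control group held 17.8 ± 0.625 CPM. Fhl2, an SRF cofactor with LIM domains, and the tropomyosins Tpm2 and Tpm4 changed by -0.64 ± 0.11, -0.41 ± 0.07 and -0.26 ± 0.04 (adjusted p = 0.000281, 0.000269 and 6.36e-05). The actin gene Actg1 changed by -0.17 ± 0.04 (adjusted p = 0.00586, and 0.0648 without full-length library 4), and Actb did not pass (-0.07 ± 0.04, adjusted p = 0.149). Tpm1, Ptpn14 and the receptor kinase Axl were higher, by 0.17 ± 0.05, 0.16 ± 0.04 and 0.27 ± 0.06 (adjusted p = 0.0116, 0.0106 and 0.00202). Without full-length library 3 the adjusted p of Tpm1 was 0.06. Gas6, the ligand of Axl, was among the largest rises (1.14 ± 0.26, adjusted p = 0.00198, and 0.104 with libraries 1 and 3 of each group alone). Acta2, Cnn1, Myl9 and Ctgf had 1 to 13 counts over a group and were not tested.

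Of 19 focal adhesion and integrin genes, 5 were lower and 1 higher (31.6%, against 19.3% of all genes), with a median of -0.05. Itga6, the alpha chain of laminin-binding integrins, stood at 97.4, 79.7, 91.7 and 82 CPM with full-length and 70.7, 64.9, 61.1 and 63.3 CPM with delta-CC-LCD. Its groups did not overlap (-0.43 ± 0.06, adjusted p = 2.76e-06). The adaptors Zyx and Pxn and the integrin activator Fermt2 changed by -0.30 ± 0.05, -0.28 ± 0.06 and -0.26 ± 0.05 (adjusted p = 2.84e-05, 0.000433 and 0.000288). The actin cross-linker Actn4 changed by 0.13 ± 0.03 (adjusted p = 0.00542).

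Lima1, which binds and bundles actin filaments, had the smallest p of all genes tested (chromosome 15 from 99778470 to 99875456 on the minus strand, mm10). It stood at 289, 290.3, 294 and 289 CPM with full-length and 193, 179, 165 and 170.1 CPM with delta-CC-LCD. The full-length libraries were nearly level and all delta-CC-LCD libraries lay below them (-0.72 ± 0.04, adjusted p = 1.44e-12). Eps8, an actin-capping protein, stood at 139, 136, 133 and 140.1 CPM and 97, 96.7, 96 and 87.1 CPM (-0.54 ± 0.04, adjusted p = 5.14e-10). Arhgef2, a microtubule-bound activator of RhoA, stood at 209, 199.8, 208 and 205 CPM with full-length and 146, 146, 153 and 135 CPM with delta-CC-LCD. It too was lower in every delta-CC-LCD library (-0.50 ± 0.04, adjusted p = 7.43e-10). With delta-IDR these 3 genes held 257 ± 9.85, 128 ± 2.91 and 229 ± 4.57 CPM. The delta-CC-LCD group was below delta-IDR in each, by -0.54 ± 0.04, -0.44 ± 0.04 and -0.66 ± 0.04 (adjusted p = 3.94e-11, 2.19e-09 and 1.69e-13). Other genes with very small p-values were the zinc-finger repressor Trps1 (-0.57 ± 0.04, adjusted p = 5.14e-10) and Klf16 (-0.85 ± 0.07, adjusted p = 5.14e-10). Loxl3, a lysyl oxidase that cross-links collagen, rose from 108 to 136 CPM to 192 to 199 CPM (0.64 ± 0.05, adjusted p = 5.14e-10). Tfrc, the transferrin receptor for iron uptake, rose from 126 to 147 CPM to 189 to 229 CPM (0.62 ± 0.05, adjusted p = 2.34e-09). The calls of all 7 genes held in each of the 19 alternatives run for single genes. The genes were picked by their small p and the alternatives reuse these libraries, so this is no independent check.

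**Figure D2:**
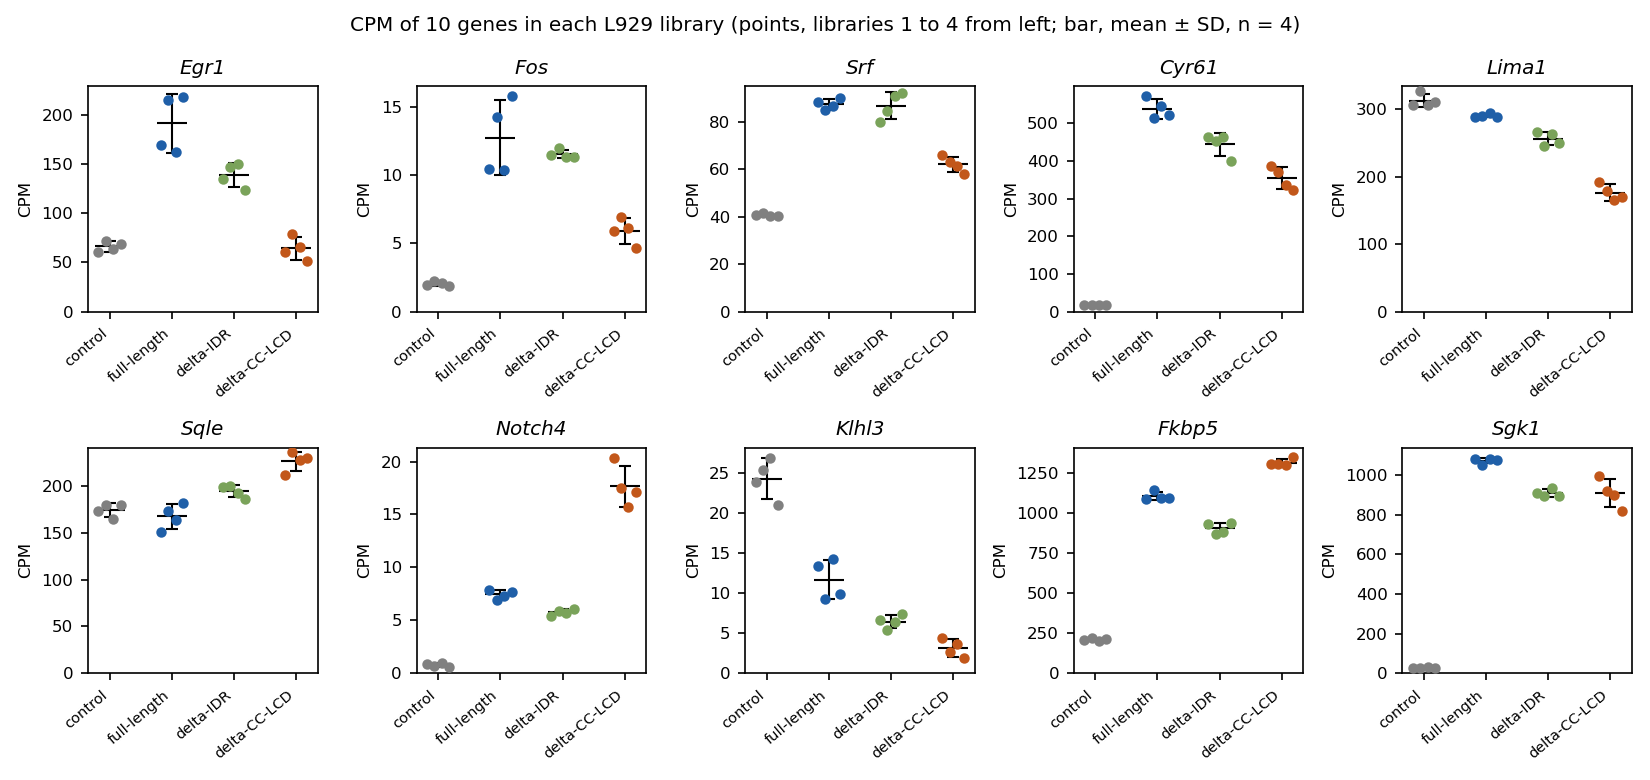
CPM (vertical axes, from 0) of 10 genes in each of the 16 L929 libraries, with points for libraries 1 to 4 from the left and a bar for the mean ± SD of each group. Egr1, Fos, Srf, Cyr61 and Lima1 are lower, and Notch4 and Sqle higher, in all 4 delta-CC-LCD libraries than in any full-length library.

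Genes of cholesterol synthesis were higher with delta-CC-LCD. These genes are known targets of SREBP-2, which cells activate when sterols in the endoplasmic reticulum run low. The motif TCACNCCAC, a form of the sterol regulatory element, was searched on both strands. Hmgcs1 was the 1 gene of 17 in the list that held it in its promoter (5.88%, against 1.22% of all 27025 genes in the RefSeq table). Its window is shown with the motif in capitals (RefSeq, GRCm38.p6, chr13:119690101-119690350, plus strand, 5′ to 3′).
Hmgcs1: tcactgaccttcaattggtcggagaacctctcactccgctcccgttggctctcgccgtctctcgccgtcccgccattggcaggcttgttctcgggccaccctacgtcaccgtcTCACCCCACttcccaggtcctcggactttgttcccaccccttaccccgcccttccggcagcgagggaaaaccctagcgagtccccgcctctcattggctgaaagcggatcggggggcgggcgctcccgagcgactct

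Of 22 cholesterol synthesis and uptake genes tested, 16 were called higher and 0 lower, with a median of 0.32, against 8.42% called higher over all genes. At an unadjusted p below 0.05 in edgeR, and in DESeq2, the counts were also 16 and 0. Along the pathway, Hmgcs1, which condenses acetyl units, stood at 229.7, 278, 241 and 290.4 CPM with full-length and 308, 359, 354 and 357 CPM with delta-CC-LCD. All delta-CC-LCD libraries were higher (0.41 ± 0.09, adjusted p = 0.00672). The isomerase Idi1 changed by 0.50 ± 0.08, and Fdft1, which makes squalene, by 0.37 ± 0.06 (adjusted p = 0.000524 and 0.000112).

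Sqle, which adds the first oxygen to squalene, stood at 151, 173, 164 and 182 CPM with full-length and 212, 236, 228 and 230.2 CPM with delta-CC-LCD. It had the smallest p of the list (0.44 ± 0.05, adjusted p = 1.79e-07). The cyclase Lss, the demethylase Cyp51, Msmo1, Nsdhl and Hsd17b7, which follow, changed by 0.31 ± 0.05, 0.30 ± 0.07, 0.35 ± 0.06, 0.33 ± 0.07 and 0.53 ± 0.10. All 5 passed, with adjusted p values of 2.47e-05, 0.00635, 9.28e-05, 0.000903 and 0.00153. Insig1, which retains the SREBP complex when sterols are plentiful, changed by 0.42 ± 0.08 (adjusted p = 0.00174). Srebf2, which encodes SREBP-2, did not pass (-0.04 ± 0.04, adjusted p = 0.61).

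The cholesterol levels also followed the library structure. The mean log2 CPM of the list, centred on each gene's mean over the 8 libraries, was -0.24, -0.04, -0.26 and -0.03 in full-length libraries 1 to 4 and -0.03, 0.19, 0.21 and 0.20 in delta-CC-LCD libraries 1 to 4. Delta-CC-LCD library 1 was thus level with full-length libraries 2 and 4. With full-length libraries 2 and 4 alone on that side, 8 genes were higher and 0 lower. Without delta-CC-LCD library 1, 16 were higher. Fatty acid synthesis genes, which SREBP-1 is known to serve, had 2 members higher and 4 lower of 19, with a median of 0.04. The share called was 31.6%, against 19.3% of all genes. The count of higher genes was 4 without full-length library 2, 5 without full-length library 4, and 1 without full-length library 3 or delta-CC-LCD library 2. Acaca, the first committed enzyme of fatty acid synthesis, changed by 0.32 ± 0.06, and the desaturase genes Scd2 and Fads3 by -0.23 ± 0.04 and -0.32 ± 0.05 (adjusted p = 0.000364, 8.88e-05 and 3.03e-05).

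Genes of hypoxia and glycolysis were lower with delta-CC-LCD than with full-length on average, but by amounts that varied between its libraries. They were not lowest with this deletion. Against delta-IDR, 11 of 22 hypoxia genes were higher in delta-CC-LCD and 2 lower, with a median of 0.47. Of 20 glycolysis genes 13 were higher than delta-IDR and 1 lower, also with a median of 0.47. Over all genes 10.7% were higher and 11.6% lower there. The hypoxia-inducible factor HIF-1 is known to bind a short site with the core ACGTG. That core, searched on both strands, stood in 12 of 17 hypoxia-induced genes with a promoter in the table (70.6%), and in 7 of the 11 called ones. It stood in 10 of 20 glycolysis genes (50%), and in 8 of the 16 called ones. Of all 27025 genes in the RefSeq table, 18.5% held it. P4ha1, a prolyl hydroxylase of collagen, is shown as a called member with a single core near its start (RefSeq, GRCm38.p6, chr10:59323046-59323295, plus strand, 5′ to 3′, with the core in capitals as read on the opposite strand).
P4ha1: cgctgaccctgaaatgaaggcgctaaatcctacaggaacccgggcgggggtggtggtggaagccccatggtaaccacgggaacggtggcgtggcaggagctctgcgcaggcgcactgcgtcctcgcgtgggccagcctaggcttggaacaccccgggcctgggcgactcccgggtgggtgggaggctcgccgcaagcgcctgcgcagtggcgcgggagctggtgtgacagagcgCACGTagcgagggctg

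Of 22 hypoxia-induced genes, 14 were called lower and 1 higher (68.2%, against 19.3% of all genes), with a median of -0.45. Car9, a carbonic anhydrase of the cell surface and a hypoxia marker, stood at 930.3, 675, 918 and 677 CPM with full-length and 537, 271, 171 and 201 CPM with delta-CC-LCD. Delta-CC-LCD library 1 was far above libraries 2 to 4, and the groups still did not overlap. Its change was -1.44 ± 0.34 (adjusted p = 0.0107). The call was lost in 5 of 19 alternatives, among them the fit of only the 8 libraries compared (adjusted p = 0.0604). P4ha1 stood at 447, 412, 466 and 407 CPM with full-length and 376, 342, 309 and 327 CPM with delta-CC-LCD. It was lower in all 4 delta-CC-LCD libraries (-0.35 ± 0.05, adjusted p = 4.05e-05).

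Ero1l, an oxidase that drives disulphide formation, stood at 1907, 1198, 1831 and 1264 CPM with full-length and 972, 596, 509.5 and 520.1 CPM with delta-CC-LCD. Full-length libraries 1 and 3 were the highest, and delta-CC-LCD library 1 was again above the rest of its group (-1.25 ± 0.22, adjusted p = 0.00172). Bnip3l, a mitophagy receptor, and Pdk1, a kinase that inhibits pyruvate dehydrogenase, changed by -0.75 ± 0.14 and -0.78 ± 0.15 (adjusted p = 0.00236 and 0.00254). Egln1, the oxygen-sensing hydroxylase of HIF, changed by -0.87 ± 0.17 (adjusted p = 0.00398). Kdm3a, a histone demethylase, was the 1 gene of the list called higher (0.52 ± 0.11, adjusted p = 0.00542). Hif1a and Vegfa did not pass (0.12 ± 0.05 and -0.24 ± 0.11, adjusted p = 0.0937 and 0.157). Each passed without 1 library, Hif1a as higher without full-length library 4 (0.18, adjusted p = 0.0067) and Vegfa as lower without delta-CC-LCD library 1 (-0.38, adjusted p = 0.000271).

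Of 20 glycolysis genes, 13 were called lower and 3 higher, with a median of -0.53, the lowest of the 32 lists. The share called was 80%, against 19.3% of all genes. The falls covered most steps from glucose phosphorylation to lactate. Several of these genes have near-identical copies in the genome, which makes their counts uncertain. Hk1 changed by -0.58 ± 0.12, Gpi1 by -0.53 ± 0.09, the phosphofructokinases Pfkl, Pfkp and Pfkm by -0.55 ± 0.12, -0.55 ± 0.11 and -0.38 ± 0.07, and the aldolases Aldoa and Aldoc by -0.59 ± 0.12 and -0.97 ± 0.16. Tpi1, Pgk1, Pgam1, Eno1, Pkm and Ldha changed by -0.75 ± 0.13, -0.84 ± 0.17, -0.52 ± 0.11, -0.51 ± 0.09, -0.54 ± 0.09 and -0.59 ± 0.12. Pkm, the pyruvate kinase and a very abundant transcript, stood at 3678, 3119, 3883 and 2949.8 CPM with full-length and 2691, 2392, 2080.0 and 2209.8 CPM with delta-CC-LCD. Its groups did not overlap (adjusted p = 0.0014). The adjusted p of the other 12 lay between 0.000322 for Pfkm and 0.00545 for Pfkl. Hexokinase 2 went the other way, with Hk2 at 122, 162, 128 and 150.1 CPM in full-length and 227, 208, 182 and 182 CPM in delta-CC-LCD (0.50 ± 0.10, adjusted p = 0.00288), as did Pfkfb4 (0.47 ± 0.07, adjusted p = 3.13e-05) and the lactate carrier Slc16a3 (0.94 ± 0.26, adjusted p = 0.013, and 0.0503 without full-length library 3).

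The level of both lists differed strongly between libraries of 1 group. The mean centred log2 CPM of the hypoxia list was 0.30, 0.16, 0.31 and 0.19 in full-length libraries 1 to 4, and 0.19, -0.23, -0.49 and -0.44 in delta-CC-LCD libraries 1 to 4. Delta-CC-LCD library 1 thus lay within the full-length range. For glycolysis the values were 0.25, 0.16, 0.24 and 0.08 with full-length and 0.11, -0.10, -0.38 and -0.36 with delta-CC-LCD, with the same library inside the full-length range. Without delta-CC-LCD library 1, 16 hypoxia genes and 15 glycolysis genes were lower. Without delta-CC-LCD library 3 or 4, 10 hypoxia genes and 13 glycolysis genes were. Without full-length library 1 or 3 the counts were 12 and 13. Summing libraries in pairs gave 8 and 15, and full-length libraries 2 and 4 alone on that side gave 6 and 7. With libraries 1 and 3 of each group alone, 2 genes were lower and 2 higher in each list, and with libraries 2 and 4 alone 10 hypoxia genes and 5 glycolysis genes were lower. The medians were between -0.55 and -0.46 in the latter 2 settings, and -0.54 and -0.62 without delta-CC-LCD library 1.

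**Figure D3:**
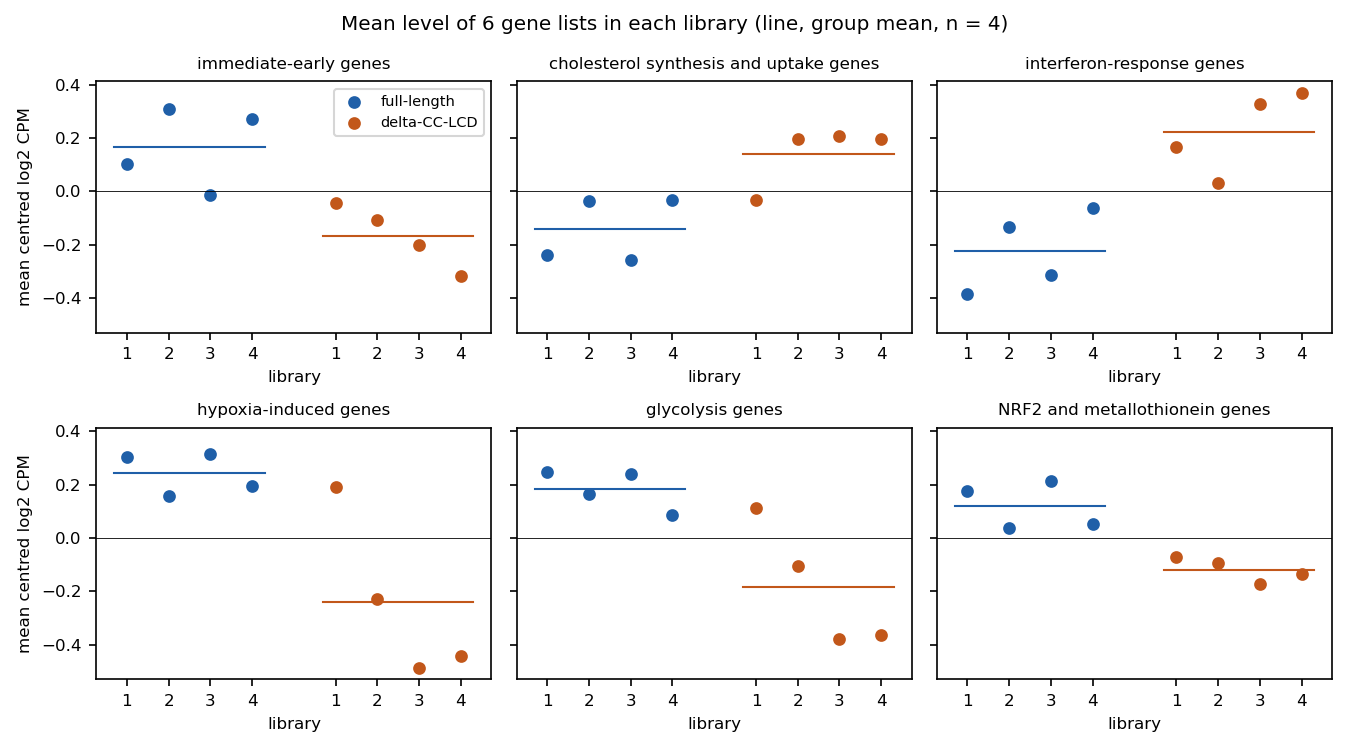
Mean centred log2 CPM of 6 gene lists (vertical axes) in full-length libraries 1 to 4 (blue) and delta-CC-LCD libraries 1 to 4 (orange), with a line for each group mean (n = 4). In the hypoxia panel delta-CC-LCD library 1 (0.19) sits among the full-length libraries while libraries 3 and 4 sit at -0.49 and -0.44.

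NRF2 is a transcription factor known for switching on antioxidant and glutathione genes through sites that read TGACNNNGC. This motif, searched on both strands, stood in 5 of 17 list members with a promoter (29.4%), and in 3 of the 12 called ones. Of all 27025 genes in the RefSeq table, 11.5% held it. Of 20 NRF2 and metallothionein genes, 13 were called lower and 2 higher (75%, against 19.3% of all genes), with a median of -0.28. Hmox1, which breaks down heme, stood at 124, 69, 113 and 73.9 CPM with full-length and 45.8, 41.7, 33 and 32.5 CPM with delta-CC-LCD. All delta-CC-LCD libraries were lower, and full-length libraries 1 and 3 exceeded 2 and 4 (-1.31 ± 0.20, adjusted p = 0.000562). With libraries summed in pairs the adjusted p of Hmox1 was 0.067.

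Srxn1, which repairs oxidised peroxiredoxins, stood at 202, 172, 206 and 169.9 CPM with full-length and 143, 145, 136 and 136 CPM with delta-CC-LCD, with no overlap (-0.42 ± 0.05, adjusted p = 1.63e-06). The quinone reductase Nqo1 changed by -0.41 ± 0.06, and the cystine importer Slc7a11 by -0.32 ± 0.06 (adjusted p = 4.16e-06 and 0.000645). Both subunits of glutamate-cysteine ligase, Gclc and Gclm, fell (-0.28 ± 0.07 and -0.38 ± 0.09, adjusted p = 0.00461 and 0.0115), and Gclm did not pass in the fit of only the 8 libraries compared (adjusted p = 0.0609). G6pdx, which supplies NADPH, changed by -0.25 ± 0.04 (adjusted p = 8.9e-05). Osgin1 and Taldo1 were higher (0.57 ± 0.14 and 0.22 ± 0.05, adjusted p = 0.00328 and 0.00501). After summing libraries in pairs, 7 genes of this list were lower, and with a minimum of 1.5-fold 1 was.

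Of 36 interferon-response genes tested, 15 were higher with delta-CC-LCD than with full-length, and all 36 were lower than with delta-IDR. A form of the interferon-stimulated response element, GAAA and again GAAA with 2 bases between them, was searched on both strands. It stood in 12 of 27 members with a promoter (44.4%), and in 5 of the 10 called ones. Of all 27025 genes in the RefSeq table, 3.46% held it. Oas3, which makes the second messenger of RNase L, is shown as the called member with the smallest p (RefSeq, GRCm38.p6, chr5:120777660-120777909, minus strand, 5′ to 3′, with the element in capitals).
Oas3: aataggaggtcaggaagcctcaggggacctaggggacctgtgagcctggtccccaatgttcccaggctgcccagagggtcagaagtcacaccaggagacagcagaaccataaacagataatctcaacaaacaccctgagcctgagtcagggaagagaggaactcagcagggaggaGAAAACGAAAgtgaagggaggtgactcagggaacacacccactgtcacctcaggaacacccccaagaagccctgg

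Of 36 interferon-response genes, 15 were called higher and 0 lower (41.7%, against 19.3% of all genes), with a median of 0.44. At an unadjusted p below 0.05 in edgeR 21 were higher and 0 lower, and DESeq2 called 18 and 0. Oas3 stood at 15.3, 16.4, 14.8 and 16.5 CPM with full-length and 30.3, 25.9, 21.4 and 25 CPM with delta-CC-LCD. Every delta-CC-LCD library was higher, library 1 the most (0.71 ± 0.10, adjusted p = 6.6e-06). Ifi44 stood at 5.17, 4.75, 4.52 and 5.28 CPM with full-length and 10.3, 7.86, 10.6 and 10.2 CPM with delta-CC-LCD, where library 2 was the lowest and still above full-length (0.98 ± 0.14, adjusted p = 5.82e-05). Isg15, a ubiquitin-like modifier, was low in both groups and rose from 1.03 to 2.22 CPM to 2.57 to 4.73 CPM (1.03 ± 0.22, adjusted p = 0.00159). With full-length libraries 2 and 4 alone on that side the adjusted p of Isg15 was 0.0859. The transcription factor Stat2 changed by 0.37 ± 0.08, Ifi35 by 0.60 ± 0.09, and Bst2, which tethers budding viruses, by 0.34 ± 0.09 (adjusted p = 0.00227, 3.53e-05 and 0.0127).

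Ifi44 was at 102 ± 10.8 CPM in delta-IDR and at 6.17 ± 1.34 CPM in the control group, and delta-CC-LCD differed from delta-IDR by -3.39 ± 0.11 (adjusted p = 1.44e-15). All 36 genes were called lower in delta-CC-LCD than in delta-IDR, with a median of -1.88, where 11.6% of all genes were called lower. Both comparisons use the delta-CC-LCD libraries. Against the control group, 6 of the 36 were higher in delta-CC-LCD and 13 lower, with a median of -0.26. Over all genes 31.9% were higher and 32.7% lower than control, whose dexamethasone treatment the labels do not give. With full-length libraries 2 and 4 alone, 5 of the 36 were higher than full-length, and with the full-length libraries summed in pairs 8 were. Counts within families of close copies (the Oas, Ifit and Gbp genes) are uncertain. Of 17 genes of MHC class I presentation, 2 were higher and 1 lower, with a median of 0.09. The share called, 17.6%, was near the 19.3% of all genes. Leaving out full-length library 2 or 4 gave 5 higher, delta-CC-LCD library 1 gave 4, and full-length library 3 or delta-CC-LCD library 2 gave 1, and without full-length library 4 or delta-CC-LCD library 2, 0 were lower. Erap1, which trims peptides, changed by 0.37 ± 0.08 (adjusted p = 0.000679).

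The textbook glucocorticoid-induced genes went both ways. The receptor is known to bind as a dimer to a palindrome, searched here on both strands as GNACA and TGTNC with 3 bases between them. The palindrome stood in 5 of 28 members with a promoter (17.9%), and in 3 of the 16 called ones. Of all 27025 genes in the RefSeq table, 0.44% held it. Sgk1, the serum- and glucocorticoid-regulated kinase, is shown as the strongly expressed called member that holds it (RefSeq, GRCm38.p6, chr10:21993640-21993889, plus strand, 5′ to 3′, with the palindrome in capitals).
Sgk1: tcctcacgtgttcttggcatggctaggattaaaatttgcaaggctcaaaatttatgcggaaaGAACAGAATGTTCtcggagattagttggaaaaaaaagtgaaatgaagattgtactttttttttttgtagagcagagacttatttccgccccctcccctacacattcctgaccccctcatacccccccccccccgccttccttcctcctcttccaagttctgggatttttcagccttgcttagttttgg

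Of 32 glucocorticoid-induced genes tested, 9 were called higher and 8 lower (53.1%, against 19.3% of all genes), and 15 did not pass. The median was 0.05. The balance varied with the libraries used. It was 6 higher and 11 lower with libraries 2 and 4 of each group alone, and 8 and 5 with libraries 1 and 3 alone. With full-length libraries 2 and 4 alone on that side it was 5 and 10, and with full-length libraries 1 and 3 alone 9 and 6. Without full-length library 3 it was 7 and 10. Sgk1 stood at 1082, 1054, 1083 and 1076 CPM with full-length and 997, 923, 901 and 821 CPM with delta-CC-LCD. All 4 delta-CC-LCD libraries were lower (-0.24 ± 0.04, adjusted p = 0.000253). Fkbp5, an Hsp90 co-chaperone known as a brake on the receptor, stood at 1090.0, 1147, 1094 and 1099 CPM with full-length and 1309.8, 1306, 1303 and 1355 CPM with delta-CC-LCD. Here all 4 delta-CC-LCD libraries were higher (0.25 ± 0.04, adjusted p = 6.6e-06). The control group held 29.6 ± 1.92 CPM of Sgk1 and 211 ± 6.05 CPM of Fkbp5, so in both FRMD5 groups each gene was far above the control group, by 4.94 ± 0.05 and 2.64 ± 0.04 for delta-CC-LCD (adjusted p = 7.9e-34 and 4.04e-31). Of the 32 genes 29 were higher and 3 lower than in control, where 64.6% of all genes were called. A difference in dexamethasone and a difference in construct cannot be told apart in that contrast.

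Glul, glutamine synthetase, stood at 319, 322, 328 and 328 CPM with full-length and 437, 413, 378 and 409 CPM with delta-CC-LCD, with every delta-CC-LCD library higher (0.34 ± 0.04, adjusted p = 2.11e-06). Tsc22d3, the gene of the leucine zipper protein GILZ, changed by 0.20 ± 0.05, and Anxa1, which restrains inflammation, by 0.21 ± 0.04 (adjusted p = 0.00412 and 0.000148). The lipocalin Lcn2 changed by 0.71 ± 0.17, Fam107a by 0.57 ± 0.11 and Hif3a by 0.50 ± 0.10 (adjusted p = 0.00963, 0.00068 and 0.000819). Lcn2 did not pass in the fit of only the 8 libraries compared (adjusted p = 0.086) or with libraries summed in pairs (adjusted p = 0.215), and its change ran from 0.37 with full-length libraries 2 and 4 alone to 1.17 with full-length libraries 1 and 3 alone.

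Among the falls, Dusp1, a MAP kinase phosphatase that is also an immediate-early gene, stood at 323, 322, 340.5 and 309 CPM with full-length and 236, 211, 190.3 and 188 CPM with delta-CC-LCD. No delta-CC-LCD library reached the full-length range (-0.65 ± 0.06, adjusted p = 1.79e-07). Cdkn1a, which encodes the cell-cycle inhibitor p21, changed by -0.39 ± 0.04, and the transcription factors Klf9 and Cebpb by -0.28 ± 0.05 and -0.23 ± 0.05 (adjusted p = 1.79e-07, 4.3e-05 and 0.00108). Errfi1, an inhibitor of the EGF receptor and an abundant transcript here, changed by -0.17 ± 0.04 (adjusted p = 0.0011). Per1 did not pass (-0.07 ± 0.05, adjusted p = 0.337). Nor did Nr3c1, the receptor gene itself, at 129, 129, 123 and 139 CPM with full-length and 125, 138, 139.9 and 132 CPM with delta-CC-LCD (0.04 ± 0.04, adjusted p = 0.609).

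Against delta-IDR, 18 members were higher and 1 lower in delta-CC-LCD, with a median of 0.25, where 10.7% of all genes were higher and 11.6% lower. Fkbp5 was above delta-IDR (907 ± 35.6 CPM) by 0.54 ± 0.04 (adjusted p = 6.39e-13), and Glul by 1.00 ± 0.04 (adjusted p = 8.35e-17). Sgk1 and Dusp1 did not pass there (0.00 ± 0.04 and -0.02 ± 0.06, adjusted p = 0.976 and 0.85). Of 24 genes for the receptor's chaperones and coregulators, 6 were higher and 1 lower than full-length, with a median of 0.03. The share called was 29.2%, against 19.3% of all genes. Without delta-CC-LCD library 4, 0 were lower. The coactivator Ncoa2 changed by 0.24 ± 0.05, and the chaperone gene Hspa8 by 0.14 ± 0.03 (adjusted p = 0.0017 and 0.00306).

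**Figure D4:**
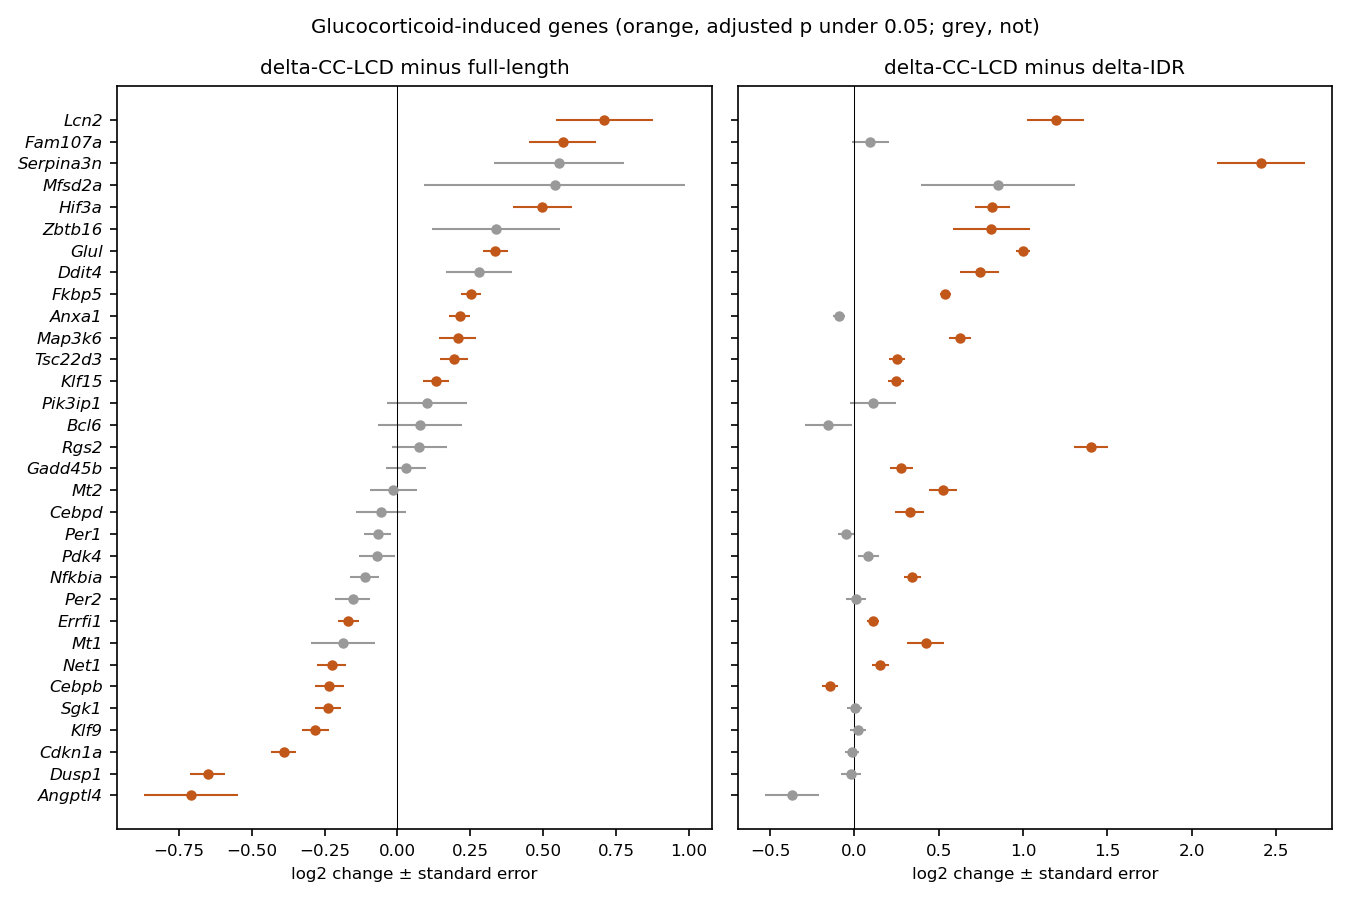
Log2 change ± standard error (horizontal axes) of the 32 glucocorticoid-induced genes tested, for delta-CC-LCD minus full-length (left) and delta-CC-LCD minus delta-IDR (right), in orange where the adjusted p is below 0.05. On the left 9 genes are called higher and 8 lower, on the right 18 higher and 1 lower.

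Among protein-coding genes at 2 CPM or more whose groups did not overlap, the largest rise after Hp, the hemoglobin-binding protein haptoglobin (1.33 ± 0.29, adjusted p = 0.00123), was Notch4, a Notch receptor of endothelium (chromosome 17 from 34564268 to 34588503 on the plus strand, mm10). Notch4 stood at 7.9, 6.91, 7.32 and 7.71 CPM with full-length and 20.3, 17.5, 15.7 and 17.2 CPM with delta-CC-LCD. The rule required groups that did not overlap, so their separation is no further support. The change was 1.24 ± 0.11 (adjusted p = 3.76e-09). Delta-IDR held 5.77 ± 0.27 CPM and the control group 0.795 ± 0.181 CPM, and delta-CC-LCD was above delta-IDR by 1.61 ± 0.11 (adjusted p = 2.59e-12). Of 11 Notch pathway genes tested 1 was higher, Notch4 itself, and 2 were lower, with a median of -0.02. The share called was 27.3%, against 19.3% of all genes. Without full-length library 1, delta-CC-LCD library 3 or delta-CC-LCD library 4, 1 was lower. Hes1, a Notch target, changed by -0.36 ± 0.09 (adjusted p = 0.00542). Trim9, a ubiquitin ligase of neurons, stood at 17.7, 32.5, 13.7 and 31.7 CPM with full-length and 45.8, 53.5, 57.8 and 56.3 CPM with delta-CC-LCD. The full-length libraries fell into a lower and a higher pair, both below delta-CC-LCD as the rule required (1.16 ± 0.23, adjusted p = 0.0036). Summing libraries in pairs took the adjusted p to 0.138.

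Other large rises were Chdh, which oxidises choline (1.18 ± 0.25, adjusted p = 0.00128), and Cd33, a sialic acid receptor of myeloid cells (1.04 ± 0.26, adjusted p = 0.00407). Chdh did not pass in 2 of 19 alternatives, with an adjusted p of up to 0.0515. Cd33 did not with libraries 2 and 4 of each group alone (adjusted p = 0.118), nor Hp with libraries 1 and 3 alone (adjusted p = 0.092). Ccbe1, a matrix protein of lymphatic growth, Krt7, a keratin, and Slfn2, of the interferon-inducible Schlafen family, changed by 1.03 ± 0.13, 1.03 ± 0.15 and 0.95 ± 0.18 (adjusted p = 2.48e-06, 1.6e-05 and 0.00221).

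The largest fall by the same rule was Klhl3, an adaptor of the ubiquitin ligase that turns over WNK kinases (chromosome 13 from 58000228 to 58113592 on the minus strand, mm10). It stood at 13.4, 9.32, 14.2 and 9.91 CPM with full-length and 4.43, 2.64, 3.69 and 1.89 CPM with delta-CC-LCD. As that rule required, no delta-CC-LCD library reached the lowest full-length library (-1.89 ± 0.20, adjusted p = 2.09e-06). Delta-IDR, at 6.44 ± 0.816 CPM, was also above delta-CC-LCD (delta-CC-LCD minus delta-IDR -1.02 ± 0.21, adjusted p = 0.00116). Creb5, a relative of CREB, stood at 12.1, 8.6, 11.3 and 8.96 CPM with full-length and 3.47, 3.35, 3.46 and 3.67 CPM with delta-CC-LCD. The delta-CC-LCD libraries were almost equal (-1.55 ± 0.13, adjusted p = 2.35e-09). Epm2a, the glycogen phosphatase laforin, and Gipr, an incretin receptor, changed by -1.46 ± 0.24 and -1.39 ± 0.23 (adjusted p = 0.000672 and 0.000914).

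Amhr2, the receptor of anti-Müllerian hormone, and Cox7a1, a subunit of cytochrome oxidase, changed by -1.50 ± 0.34 and -1.32 ± 0.32 (adjusted p = 0.00883 and 0.0115). Amhr2 did not pass in 4 of 19 alternatives, among them the fit of only the 8 libraries compared (adjusted p = 0.0592) and libraries summed in pairs (adjusted p = 0.0534), and Cox7a1 did not in 2, with an adjusted p of up to 0.143. For 4 other large falls, the call was lost without single libraries. Slit1, an axon guidance ligand, stood at 57, 37.3, 58.3 and 39.1 CPM with full-length and 35.8, 8.39, 5.59 and 8.1 CPM with delta-CC-LCD, where library 1 was close to the full-length range (-1.73 ± 0.52, adjusted p = 0.0353). Tnfrsf9, a costimulatory receptor, had the same shape, at 43, 28.4, 44.4 and 29.8 CPM and 28.3, 9.57, 6.22 and 7.04 CPM (-1.52 ± 0.44, adjusted p = 0.0286). Ghrh and Tph1, the serotonin-making hydroxylase, changed by -1.63 ± 0.51 and -1.81 ± 0.48 (adjusted p = 0.0403 and 0.018). The adjusted p rose above 0.05 without full-length library 1 or 3, or without delta-CC-LCD library 3 or 4, for all 4 genes. It then lay between 0.0733 and 0.104 for Slit1 and Tnfrsf9, between 0.0897 and 0.111 for Ghrh, and between 0.051 and 0.0616 for Tph1. For Ghrh it was 0.0586 without full-length library 2, 0.0536 without full-length library 4 and 0.109 without delta-CC-LCD library 2, which also took Slit1 to 0.0989 and Tnfrsf9 to 0.0817.

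**Figure D5:**
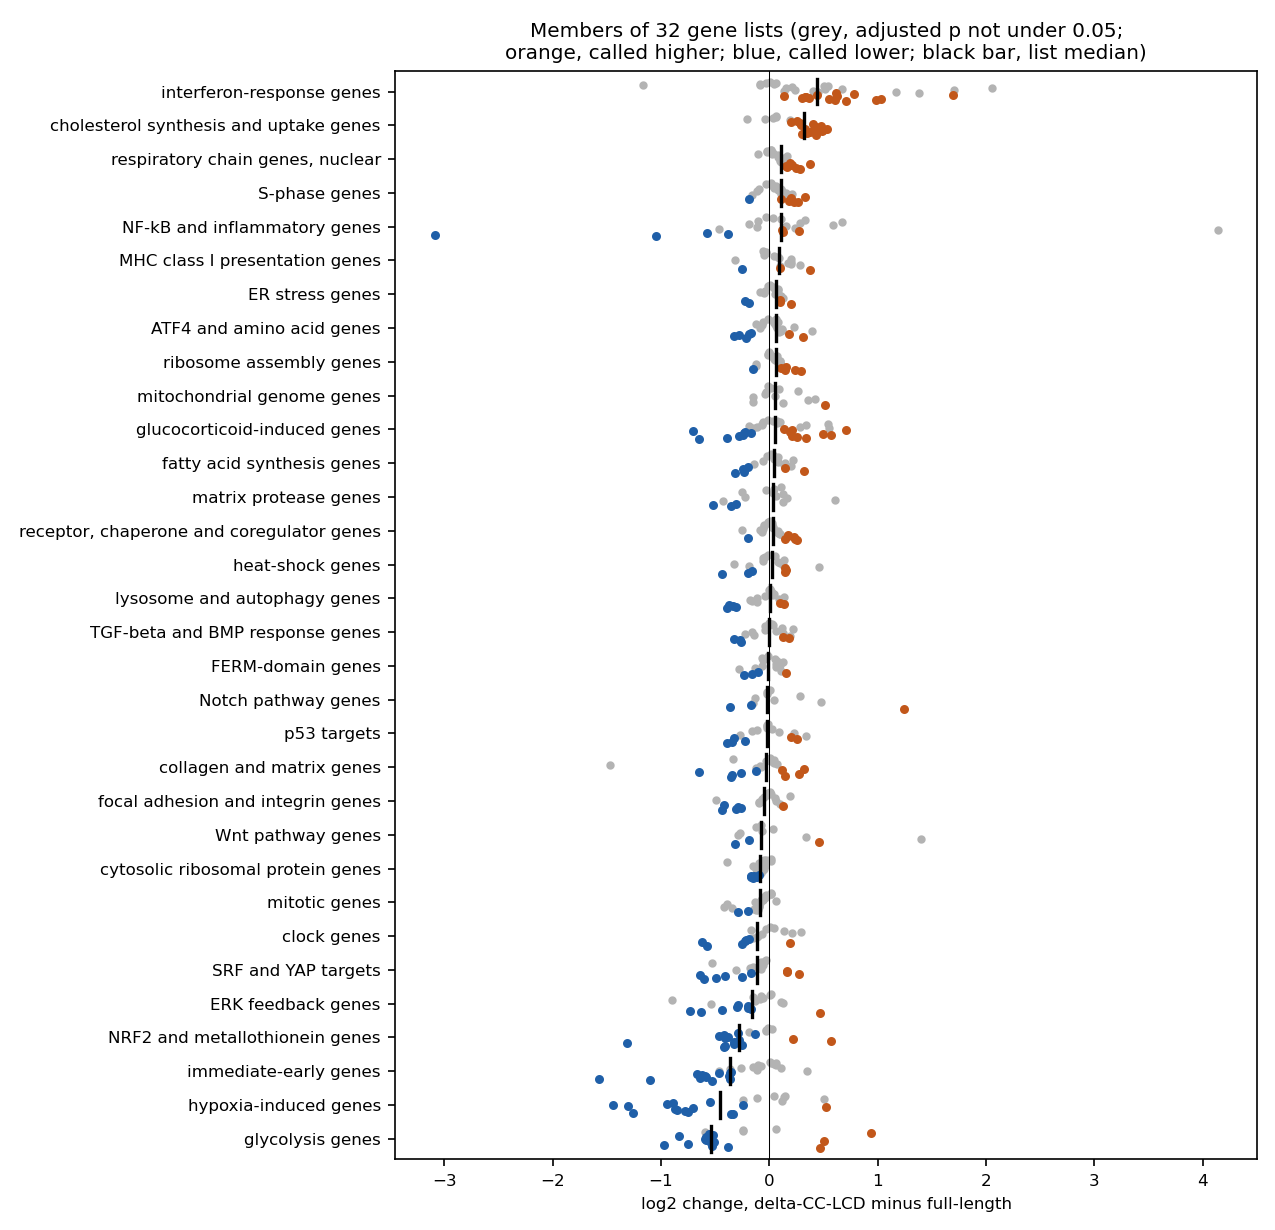
Log2 change between delta-CC-LCD and full-length (horizontal axis) of each tested member of 32 gene lists, ordered by the list median (black bar), in orange or blue where called higher or lower and grey where not. Glycolysis (median -0.53) and hypoxia (median -0.45) lie lowest, and interferon response (median 0.44) and cholesterol synthesis (median 0.32) highest.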

How the data were processed

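RNA-seq libraries of L929 cells were analysed from the table of raw read counts per gene that the authors deposited (54532 genes, 16 libraries). Reads were aligned with HISAT2 2.2.1 to mm10, per the submitters' processing notes. Not given in the sources used here are the counting program, the annotation release and whether counting used strand. Without them, overlapping antisense genes cannot be separated, and genes with near-identical copies have uncertain counts. No counts were normalized before deposit, and 0 columns belonged to no sample.

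Genes were kept by edgeR's filterByExpr over the 4 L929 groups (14118 genes). Libraries were scaled by TMM, and a quasi-likelihood model with group as its 1 term was fitted in edgeR 4.0.16 (R 4.3.3) to all 16 libraries, which share 1 estimate of the spread. Contrasts were delta-CC-LCD minus full-length, delta-IDR and control. These share the delta-CC-LCD libraries. P-values were adjusted by Benjamini-Hochberg over all genes tested, with a threshold of 0.05, and the standard error was taken from the F statistic. The test was run first on simulated counts, drawn independently for each library and so without the library structure seen here.

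The libraries compared, the 32 gene lists and the rule for named genes were chosen with earlier results of these data known. The rule took Frmd5 and 5 genes of the receptor's response, the 12 largest rises and 12 largest falls among protein-coding genes at a mean of 2 CPM or more with groups that did not overlap, the 8 smallest p-values, the 8 most abundant called genes, and up to 4 called members of each list with the smallest p (154 genes). Non-overlap was a condition for those rises and falls, Egr1, Car9 and Ifi44 among them, so it is no separate result for them. A further 55 list members were chosen after their values were seen.

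Replicate numbers did not pair the libraries. Deviations of same-numbered full-length and delta-CC-LCD libraries correlated at 0.058, 0.0111, -0.056 and -0.0441. Alternatives were DESeq2 1.42.0, RLE scaling, no filter, only the 8 libraries compared, a replicate block, libraries 1 and 3 or 2 and 4 summed or taken alone, each library left out, a minimum of 1.5-fold and, chosen after seeing the data, 3 treatments of the full-length libraries. Promoters are the 250 bases before each start in RefSeq's GRCm38.p6 table, searched on both strands. The 27025 genes of that table were counted whether expressed or not, and a gene counted once if any of its promoters held the motif. The neuron libraries of the series were not used here. Some genes that the rule names are not reported here.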

Additional observations from a re-analysis of the deposited data

Results flagged for a closer look

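In each group of 4, a library was marked where its gap to the nearest other library, over the group's range, passed Dixon's 95% critical value. Of 416 gene and group values, 24 were marked, and chance marks about 1 in 20 such groups. Delta-CC-LCD library 1 accounted for 12 of them, 7 high and 5 low. The causes of these values were not tested.

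In delta-CC-LCD library 1, 4 of the 5 low values were those of sterol genes. Msmo1 was at 209 CPM (242 to 246 in the other 3 libraries), Insig1 at 107 CPM (136 to 142), Hmgcs1 at 308 CPM (354 to 359) and Cyp51 at 891 CPM, below the other 3. Col6a1, a collagen VI chain, was also low there, at 1855 CPM. The high values of the same library were Slit1 at 35.8 CPM (5.59 to 8.39 in the others), Tnfrsf9 at 28.3 CPM (6.22 to 9.57), Vegfa at 425 CPM (292 to 304), Col5a2 at 368 CPM (302 to 307), Zyx at 264 CPM (229 to 234), Fads3 at 177 CPM (156 in the others) and the small heat-shock gene Hspb8 at 125 CPM (118 to 119).

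In delta-CC-LCD library 2, Ifi44 was low at 7.86 CPM (10.2 to 10.6 in the others), the chaperone gene Hsp90b1 was low at 2238 CPM, and the chemokine gene Cxcl1 was high at 4.23 CPM (3.35 to 3.46). In library 3 Fam107a was low at 9.97 CPM (11.5 to 11.7) and Mmp11 at 17.5 CPM (20.9 to 21.1). In library 4 Fkbp5 was high at 1355 CPM, Dnajb11 at 197 CPM (177 to 179) and Nkd1 at 26.1 CPM (23.2 to 23.6), and Eps8 was low at 87.1 CPM (96 to 97). In the full-length group, library 2 was high in Fkbp5 at 1147 CPM and low in Plaur at 85.9 CPM (88.7 to 89.1), and library 1 was high in Kif20a at 78.05 CPM (71.1 to 72.2).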

How the results depend on the processing

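The count of 2727 changed genes (1189 higher, 1538 lower) depended on the libraries used. With libraries 1 and 3, and 2 and 4, of each group summed it was 1501 (681 and 820). It was 1817 (837 and 980) with libraries 1 and 3 alone, 1736 (893 and 843) with libraries 2 and 4 alone, and 413 (105 and 308) with a minimum of 1.5-fold. Chosen after seeing the data, full-length libraries 2 and 4 alone gave 1522 (672 and 850), libraries 1 and 3 alone 2881, and the full-length libraries summed in pairs 1865 (770 higher). Leaving out 1 library gave 2091 to 2829 changed, 930 to 1380 higher and 1033 to 1449 lower. DESeq2 gave 2805, RLE scaling 2746, no filter 2629 and the 8 libraries compared alone 2173. The replicate block gave 2670 (1152 and 1518), and 4 of 200 named calls were lost with it; the numbers do not pair the libraries. Of the 200 named genes called, 89 were called in all 19 alternatives, 4 to 16 were lost without 1 library, and 0 reversed. Of those not called, Nr3c1 turned to -0.0071 with full-length libraries 2 and 4 alone. Srebf2 ran from -0.0703 to 0.0013 and Jun from -0.178 to 0.059 without 1 library, both above 0 without full-length library 2. Srebf2 turned to 0.045 with full-length libraries 1 and 3 alone, and Jun to 0.27 with libraries 1 and 3 of each group and 0.217 with full-length libraries 1 and 3 alone. The share of higher calls was 43.6%, 48.8% in DESeq2, 48.3% with RLE scaling and 25.4% with a minimum of 1.5-fold. It was 42.8% without full-length library 3 and 51.6% without full-length library 1. Without a fold minimum, which direction had more calls thus depended on the libraries used. Calls of low genes are limited by depth: genes under the filter were not tested.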

Other observations

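Cell-cycle genes moved little. Called were 29.6% of S-phase genes, 7.69% of mitotic genes and 35.3% of p53 targets, against 19.3% of all genes. Of 27 S-phase genes 7 were higher and 1 lower with delta-CC-LCD than with full-length, with a median of 0.11, and Rrm2, the regulated subunit of ribonucleotide reductase, stood at 624, 678, 663 and 692 CPM with full-length and 803, 769.6, 804 and 822 CPM with delta-CC-LCD (0.27 ± 0.04, adjusted p = 4.96e-06). The count of higher S-phase genes was 12 without delta-CC-LCD library 1, 4 without delta-CC-LCD library 3 and 3 without full-length library 3. Against delta-IDR 21 of the 27 were lower. Of 26 mitotic genes 0 were higher and 2 lower (median -0.09), the kinesins Kif20a and Kif23. At an unadjusted p below 0.05 in edgeR 0 were higher and 6 lower, and DESeq2 called 0 and 2. Without delta-CC-LCD library 4 Kif23 did not pass (adjusted p = 0.057), and without delta-CC-LCD library 1 there was 1 higher mitotic gene. Of 17 p53 targets 2 were higher and 4 lower (median -0.02), Cdkn1a and Mdm2 among the falls, and 1 was higher without full-length library 3 or without delta-CC-LCD library 1, 2 or 4.

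Of 25 nuclear genes of the respiratory chain 8 were higher and 0 lower (median 0.11), against 14 and 0 at an unadjusted p below 0.05 in edgeR and 10 and 0 in DESeq2. Cycs, which encodes cytochrome c, stood at 204, 224, 225 and 229.6 CPM with full-length and 257, 273, 264 and 280.2 CPM with delta-CC-LCD (0.28 ± 0.04, adjusted p = 1.15e-05). The count of higher genes was 13 without full-length library 2 and 14 without delta-CC-LCD library 1. Of 13 genes of the mitochondrial genome 1 was higher, mt-Nd6 (0.51 ± 0.09, adjusted p = 0.00118), the gene on the opposite strand to the others, whose counts cannot be separated from antisense reads. Of 24 ribosome assembly genes 5 were higher and 1 lower (median 0.06), with Bop1 at 0.30 ± 0.05 (adjusted p = 0.000118). Without full-length library 4 these counts were 4 and 3, and 0 were lower without full-length library 1 or delta-CC-LCD library 1. With libraries 1 and 3 of each group alone they were 2 and 3, and with libraries 2 and 4 alone 10 and 0. Of 37 cytosolic ribosomal protein genes 0 were higher and 6 lower (median -0.08). At an unadjusted p below 0.05 in edgeR they were 0 and 11, DESeq2 called 0 and 4, and near-identical copies make these counts uncertain. The count of 6 fell to 2 without full-length library 1, full-length library 3, delta-CC-LCD library 3 or delta-CC-LCD library 4. It fell to 3 without full-length library 2, delta-CC-LCD library 1 or delta-CC-LCD library 2. Over all genes 19.3% were called. The share was 32% for the nuclear respiratory chain and 7.69% for the mitochondrial genome. It was 25% for ribosome assembly and 16.2% for cytosolic ribosomal proteins.

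Inflammatory genes were split. Called were 33.3% of NF-kB and inflammatory genes, 38.9% of clock genes and 27.3% of lysosome and autophagy genes, against 19.3% of all genes. Of 21 NF-kB and inflammatory genes 3 were higher and 4 lower (median 0.11), and 0 were higher without full-length library 1, full-length library 3 or delta-CC-LCD library 4. Ptgs2, the inducible cyclooxygenase, stood at 22.2, 18, 19.9 and 18.3 CPM with full-length and 10.3, 11.8, 8.93 and 6.98 CPM with delta-CC-LCD (-1.04 ± 0.11, adjusted p = 1.79e-07). Nos2, the inducible nitric oxide synthase, was low, at 3.34, 1.32, 2.14 and 1.42 CPM and 0.299, 0.352, 0.0576 and 0.237 CPM (-3.09 ± 0.42, adjusted p = 1.07e-05). Rela, a subunit of NF-kB, changed by -0.38 ± 0.06 (adjusted p = 2.93e-05). Of 18 clock genes 1 was higher and 6 lower (median -0.11), with Per3 at -0.57 ± 0.11 and Dbp at -0.62 ± 0.16 (adjusted p = 0.000635 and 0.00506). Of 22 lysosome and autophagy genes 2 were higher and 4 lower (median 0.01), with 0 higher without full-length library 1 or 3, and Sqstm1, an autophagy receptor, changed by -0.39 ± 0.05 (adjusted p = 5.22e-07).

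In the matrix, 4 of 21 collagen and matrix genes were higher and 5 lower (median -0.03), the latter 3 without full-length library 1 or delta-CC-LCD library 3 and 2 without delta-CC-LCD library 4. Col3a1 changed by -0.36 ± 0.04 and Col4a1 by 0.15 ± 0.04 (adjusted p = 7.18e-07 and 0.00308). Of 15 matrix proteases and regulators 0 were higher and 3 lower (median 0.04), against 1 and 3 at an unadjusted p below 0.05 in edgeR and 0 and 3 in DESeq2, with Plaur, the urokinase receptor, at -0.36 ± 0.05 (adjusted p = 7.22e-06). Counts of higher and lower genes were 2 and 3 of 19 for TGF-beta and BMP response, 1 and 2 of 11 for Wnt, 3 and 2 of 20 for ER stress, 2 and 5 of 26 for ATF4 and amino acid genes, 3 and 3 of 18 for heat shock, and 1 and 3 of 17 for other FERM-domain genes, with medians between -0.07 and 0.06. In lists this small, leaving out 1 library moved a count by up to 3 genes. Over all genes 19.3% were called, beside 42.9% of collagen and matrix genes and 20% of matrix proteases and regulators. From TGF-beta to FERM-domain genes, the lists had 23.5% to 33.3% called. The cytoskeletal gene Vim, at 4715, 4427, 4728 and 4225 CPM with full-length and 4043, 3603, 3377 and 3406 CPM with delta-CC-LCD, was the most abundant gene to fall by over 0.2 (-0.33 ± 0.05, adjusted p = 8.79e-05).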
